A study of Rattus norvegicus with 36 samples.

Results

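The retinoblastoma family and its E2F partners were followed through 1 cycle of differentiation and dedifferentiation in iAM-1 cells, a conditionally immortalised line of atrial muscle cells from newborn Wistar rats. Its 9 genes were chosen by name: the 3 retinoblastoma genes Rb1, Rbl1 and Rbl2, and the 6 E2F genes E2f1, E2f3, E2f4, E2f5, E2f7 and E2f8, out of 12943 rat genes listed. E2f2 and E2f6 were read beside them as further family members. Every group is the same line, and every library carries RNA of the transferred constructs, among them large T antigen and the repressor TetR-KRAB, so no group is free of the transgenes. The groups are D0, D1, D2, D3 and D9, the days of differentiation in medium without doxycycline, and D10, D11, D12 and D18, when the medium again held 100 ng/ml (dedifferentiation). D0 cells had been proliferating in 100 ng/ml doxycycline until differentiation began. Each of these 9 days has 4 libraries of poly(A) RNA, and the labels do not say whether they are separate cultures. The tests therefore reflect the spread between libraries, which may be technical. The model is limited to this 1 immortalised line.

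Retinoblastoma proteins bind E2F transcription factors and hold the genes of DNA replication silent until cyclin-dependent kinases phosphorylate them and E2F is released. Rb1 (the retinoblastoma protein) mainly holds the activator E2Fs, while Rbl1 (p107) and Rbl2 (p130) pair with the repressive E2f4 and E2f5. Rbl2 is known as the family member of quiescent cells, and Rbl1 is itself an E2F target. E2f7 and E2f8 are atypical repressors that bind DNA without a dimerisation partner and are switched on in S phase. Large T antigen is a viral protein that binds all members of the retinoblastoma family and frees E2F. Heart muscle cells largely leave the cell cycle after birth.

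Promoter windows in GRCr8 from RefSeq were found for 5 of the 9 genes (Rb1, Rbl1, Rbl2, E2f3 and E2f7). They run from 250 bases before to 50 bases after the annotated start. Windows of E2f1, E2f4, E2f5 and E2f8 were not used here. The 5 windows were searched on both strands for the E2F motif, spelled as TTTCCCGC, TTTCGCGC, TTTGCCGC or TTTGGCGC, and for the cell cycle element known as CHR, TTTGAA. The stretches that hold a match are shown because several genes of both families are known E2F targets themselves, and the capitals mark the matches.
Rb1, chr15:54911838-54911905, minus strand: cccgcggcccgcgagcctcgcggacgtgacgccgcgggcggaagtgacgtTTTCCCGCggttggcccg
Rbl1, chr3:166289357-166289444, minus strand: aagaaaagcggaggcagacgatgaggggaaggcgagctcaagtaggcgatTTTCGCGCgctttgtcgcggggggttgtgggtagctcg
E2f3, chr17:34810276-34810375, plus strand: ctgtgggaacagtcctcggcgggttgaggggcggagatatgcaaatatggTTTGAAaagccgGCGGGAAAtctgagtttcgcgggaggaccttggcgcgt
Rbl2, chr19:32096392-32096457, minus strand: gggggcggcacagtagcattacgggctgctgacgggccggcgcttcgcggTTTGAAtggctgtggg
An E2F match lay 18 to 11 bases before the start of Rbl1 and, on the opposite strand, 78 to 71 bases before that of E2f3. The match of Rb1 lay just after its start. CHR stood 90 to 85 bases before the start of E2f3, clear of its E2F match, and just after the start of Rbl2. The window of E2f7 held neither. Of 33469 rat promoter windows of the same length, 2.14% held the E2F motif and 18.4% held CHR. A match is a description of letters and not a site of binding.

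Values are CPM, reads scaled by an effective library size. In each library they were whole multiples of 1 smallest step, worth 0.0105 to 0.0361 CPM. These recovered counts came to 29.74 to 86.19 M steps per library (M, 1e+06). For the lowest genes here the multiples were odd, as in E2f7 (3, 3, 3 and 1) and E2f8 (9, 7, 1 and 5) at D9. A fixed offset below 1 read added to each count would give this. A step is therefore not taken as 1 read, and the read depth is not known. Libraries of the first days of doxycycline stood apart from each other: the median SD of a gene between libraries was 0.252 on the log2 scale at D12, against 0.0728 at D1. D12 replicates 1 and 2 differed from D12 replicates 3 and 4 across genes, as did D11 replicates 1 and 3 from D11 replicates 2 and 4, and D10 replicate 1 from the others of its day. Between D12 libraries the correlation of the deviations from the day mean was 0.475 and 0.692 within these pairs and -0.853 to -0.72 between them. Of the atrial markers all 8 were listed, and their summed level was 85550 to 93640 CPM at D9, against 12480 to 13640 CPM at D0. Of 8 fibroblast markers 6 were listed, at a sum of 40.0 to 47.3 CPM at D9, against 588 to 629 CPM at D0. The 2 of 5 macrophage markers listed summed to 0.648 to 1.04 CPM at D9, against 5.10 to 6.39 CPM at D0, the 2 of 5 endothelial markers to 248 to 287 CPM, against 16.4 to 21.8 CPM, and the 3 smooth muscle markers to 9124 to 10840 CPM, against 4631 to 4803 CPM. Within these sums Kdr rose (log2 3.79) while Vwf was not called (-0.40), and Tagln rose (1.07) while Cnn1 fell (-0.53) and Myh11 was not called (-0.22). The part of these markers in the results below was not tested. In bulk RNA, fewer cells of a type and less RNA per cell cannot be told apart. Every listed gene has at least 1 step in every library, but 1 step may stand for 0 reads. A listed marker may therefore be without reads in a library.

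The RNA of the transferred T antigen fell to 27.6, 32.9, 33.8 and 33.9 CPM at D9, against 2732, 2973, 3021 and 3098 CPM at D0. Relative to the D0 mean it stood at 23.1% on D1, 11.3% on D2, 1.22% on D3, 1.08% on D9, 14.1% on D10, 72.1% on D11, 83.4% on D12 and 168% on D18. The repressor TetR-KRAB was low at D9 too, with 5.01 ± 0.654 CPM at D9, against 699 ± 26.5 CPM at D0 (SD, n = 4 each).

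Between D9 and D0, Rbl1, E2f1, E2f5, E2f7 and E2f8 fell more than 4-fold, Rb1 and E2f3 fell less and Rbl2 rose. Of the 9 genes, 8 were called (limma, adjusted p under 0.05), 7 down and 1 up, where 71.4% of the 12487 tested genes were called, 37.0% down and 34.4% up. Only E2f4 was not called. Of the 9 genes, 7 had at least 1 CPM in all 36 libraries, while E2f7 and E2f8 reached it in 24 and 25 libraries and so entered the test through the days where they were high.

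Rb1, the founding member of the family, was a gene of moderate change. It measured 55.3, 57.5, 57.9 and 63.4 CPM at D9, against 65.5, 73.9, 77.2 and 81.8 CPM at D0. All D9 libraries lay below all D0 libraries. The log2 fold change on the log2(CPM + 0.5) scale was -0.34 (SE 0.122, adjusted p = 0.0123). In TPM (transcript abundance scaled per length and per library) it was -0.67 (adjusted p = 1.66e-05), where the median over all genes stood at -0.35.

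Rbl1, which encodes p107, fell by more than any other retinoblastoma gene. It measured 3.92, 3.93, 4.98 and 5.10 CPM at D9, against 75.4, 77.0, 79.2 and 85.7 CPM at D0. The groups did not overlap, and the log2 fold change was -4.01 (SE 0.128, adjusted p = 7.72e-24). Its D9 mean was 5.65% of the D0 mean.

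Rbl2, which encodes p130, went the other way. It measured 32.9, 37.1, 37.4 and 38.7 CPM at D9, against 21.7, 22.7, 25.9 and 27.1 CPM at D0. Every D9 library lay above every D0 library, at a log2 fold change of 0.58 (SE 0.162, adjusted p = 0.00203). On the TPM values the fold change was 0.24 and was not called (adjusted p = 0.19). Relative to the median over all genes it was 0.59 in TPM and 0.60 in CPM.

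E2f1, an activator, measured 7.43, 7.77, 8.19 and 9.27 CPM at D9, against 79.0, 81.1, 81.9 and 89.1 CPM at D0, with no overlap and a log2 fold change of -3.27 (SE 0.231). E2f3, another activator, was a low gene throughout. It measured 2.92, 3.45, 4.19 and 4.20 CPM at D9, against 6.71, 7.10, 7.47 and 7.62 CPM at D0, and fell by 0.89 on the log2 scale (SE 0.146). The repressor E2f4 lay within its own spread, at 33.8, 35.5, 36.7 and 37.2 CPM at D9, against 32.7, 37.1, 37.2 and 39.0 CPM at D0 (log2 fold change -0.03, adjusted p = 0.852). On TPM values E2f4 was called at -0.35 (adjusted p = 0.0076), which was -0.01 relative to the median of all genes, and under quantile normalisation its sign turned, at 0.06. Of E2f5, E2f4's closest relative, 2.81, 2.82, 3.05 and 3.07 CPM remained at D9, against 13.4, 14.9, 15.0 and 15.7 CPM at D0, a log2 fold change of -2.15 (SE 0.143). E2f5 was therefore called and E2f4 was not, although a test of the difference between these genes was not made.

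The atypical repressors showed the deepest falls. E2f7 measured 0.0232, 0.0810, 0.105 and 0.108 CPM at D9, against 31.6, 33.8, 37.5 and 37.6 CPM at D0. Its log2 fold change was -5.94 (SE 0.236), which is understated by the pseudocount of 0.5. Pooled over libraries, the values of E2f7 came to 10 steps at D9, against 7983 at D0, or 0.00204 of the D0 level after scaling. No counting interval is given, because the steps are not reads. E2f8 measured 0.0270, 0.116, 0.253 and 0.314 CPM at D9, against 31.2, 31.3, 31.7 and 34.9 CPM at D0. Its log2 fold change was -5.62 (SE 0.249), and 22 steps at D9, against 7324 at D0, gave a ratio of 0.00490. Both ratios include any offset in the deposited values.

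**Figure D1:**
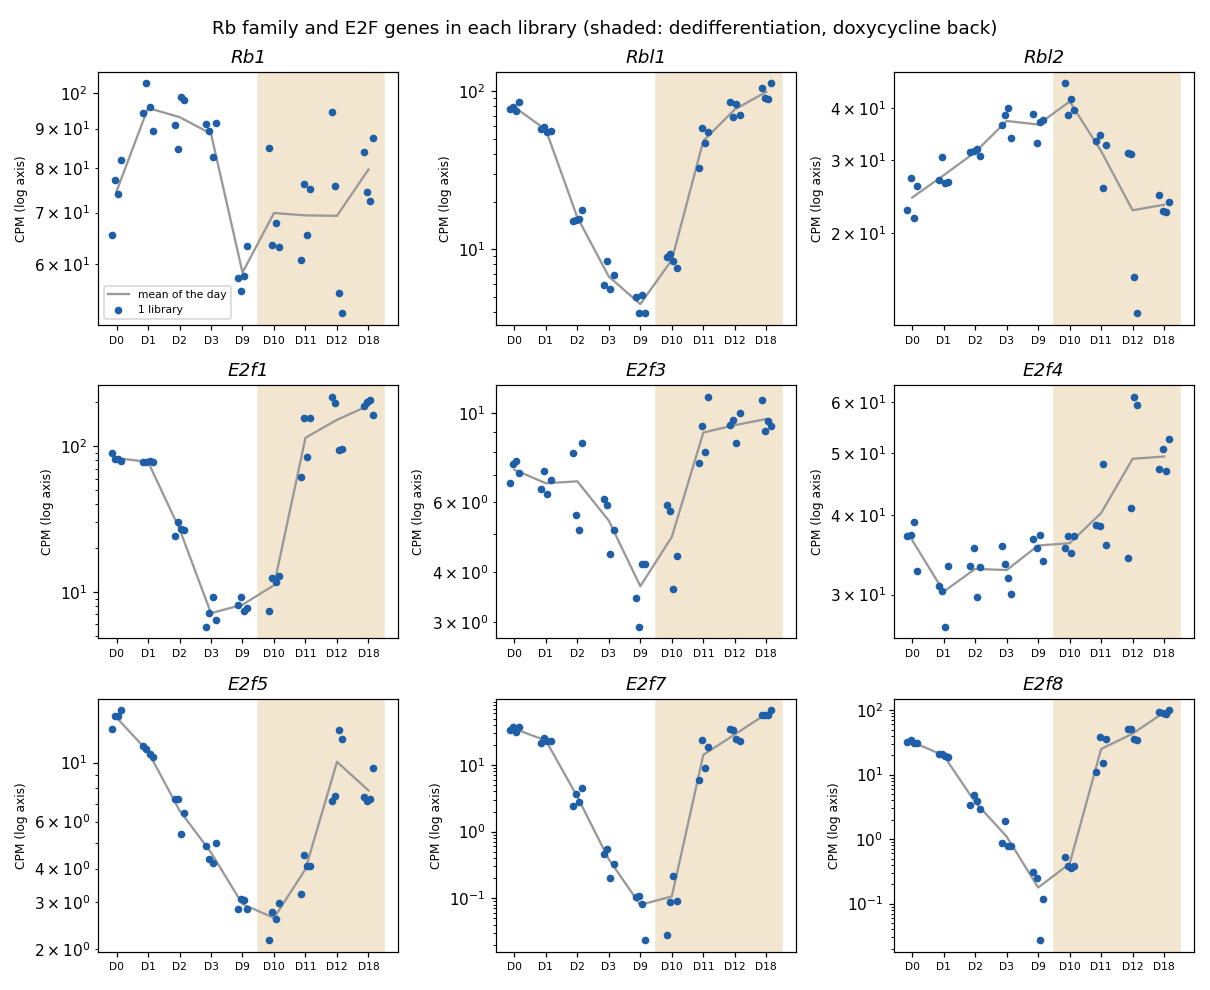
CPM of each of the 9 genes (log axis) by day, 1 point per library, 4 libraries a day, with a line through the day means; shaded days had doxycycline back in the medium. E2f7 and E2f8 reach below 1 CPM at D9 and D10, Rbl2 lies at 32.9 to 45.9 CPM on these 2 days, and E2f1, Rbl2 and Rb1 split in pairs at D12.

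With doxycycline back in the medium, 8 of the 9 genes rose. Of the 9 genes, 9 were called between D18 and D9, 8 up and 1 down, where 66.1% of tested genes were called, 33.6% up and 32.5% down. Rbl1 measured 89.0, 90.8, 104 and 112 CPM at D18, against 3.92, 3.93, 4.98 and 5.10 CPM at D9 (log2 fold change 4.32, SE 0.128). The days did not overlap. Rbl2 fell to 22.5, 22.6, 23.8 and 24.7 CPM at D18, against 32.9, 37.1, 37.4 and 38.7 CPM at D9 (log2 fold change -0.63, SE 0.162, adjusted p = 0.00101; -0.27 and adjusted p = 0.151 in TPM). The D18 libraries of Rbl2 all lay below its D9 libraries. Rb1 rose by 0.44 on the log2 scale (SE 0.122, adjusted p = 0.00211; 0.79 in TPM), with 72.5, 74.5, 83.9 and 87.6 CPM at D18, against 55.3 to 63.4 CPM at D9.

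Of the E2F genes, E2f1 rose to 163, 189, 200 and 207 CPM at D18, against 7.43 to 9.27 CPM at D9 (log2 fold change 4.46, SE 0.231). E2f3 rose by 1.29 (SE 0.146) and E2f5 by 1.27 (SE 0.143) on the log2 scale. E2f4 rose by 0.46 (SE 0.117, adjusted p = 0.000973), with 46.9, 47.2, 50.7 and 52.6 CPM at D18, against 33.8 to 37.2 CPM at D9. E2f7 measured 55.8, 56.0, 57.1 and 66.3 CPM at D18, and E2f8 86.0, 91.7, 93.1 and 99.2 CPM, against at most 0.108 and 0.314 CPM at D9. Their log2 fold changes were 6.68 (SE 0.236) and 7.12 (SE 0.249). By pooled steps the D18 level of E2f7 was 804 times that of D9, and that of E2f8 575 times, without a counting interval.

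At D18 most of the 9 genes differed from D0. Of the 9 genes, 7 were called between D18 and D0, 6 up and 1 down, where 52.0% of tested genes were called, 28.7% up and 23.2% down. E2f8 was 1.50 higher on the log2 scale (SE 0.249, adjusted p = 6.83e-06) and E2f1 1.19 higher (SE 0.231, adjusted p = 6.75e-05), with D18 libraries all above the D0 libraries. E2f7 was 0.74 higher (SE 0.236, adjusted p = 0.00955), E2f4 0.43 (SE 0.117, adjusted p = 0.00253), E2f3 0.40 (SE 0.146, adjusted p = 0.0228) and Rbl1 0.31 (SE 0.128, adjusted p = 0.0407). E2f5 was the 1 gene that was lower at D18, with 7.16, 7.30, 7.41 and 9.55 CPM at D18, against 13.4 to 15.7 CPM at D0 (log2 fold change -0.88, SE 0.143, adjusted p = 5.82e-06). Without the libraries of D10, D11 and D12 the counts were the same in all 3 comparisons, 8, 9 and 7. Rb1 (log2 fold change 0.09, adjusted p = 0.535) and Rbl2 (-0.05, adjusted p = 0.808) were not called, and their libraries overlapped between the days. The call of Rbl1 was lost without D0 replicate 1, 2 or 3 or D18 replicate 1 or 4 (adjusted p = 0.0671 to 0.132), and that of E2f3 without D0 replicate 1 (0.0595) or D18 replicate 1 (0.0722). T antigen itself stood 0.74 above D0 at D18 on the log2 scale (SE 0.148).

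**Figure D2:**
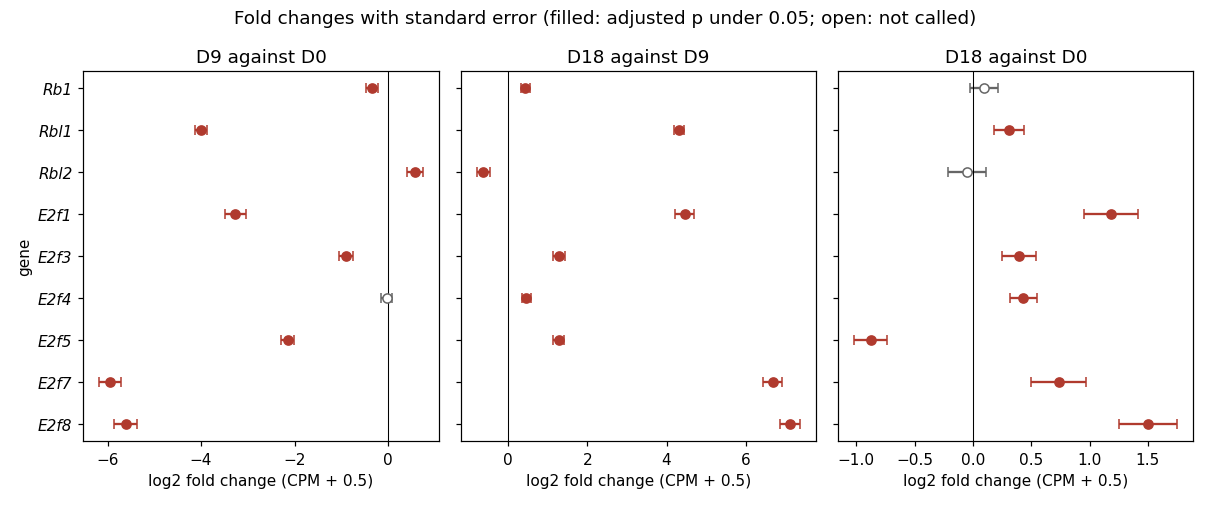
Log2 fold change of each gene with its standard error in D9 against D0, D18 against D9 and D18 against D0, from 1 limma fit over 36 libraries; filled points are called at adjusted p under 0.05. Rbl2 points away from the other retinoblastoma genes in the first 2 panels, and E2f5 is the only gene called down in the third.

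The steps between sampled days tell when each gene moved. At D1, T antigen was at 23.1% of D0 while E2f1 stood at 94.4%, Rbl1 at 71.8%, E2f7 at 66.5% and E2f8 at 61.4%. Of the 9 genes, 2 were called between D1 and D0 (12.3% of genes tested): Rb1 up (log2 0.36, SE 0.122, adjusted p = 0.0476) and Rbl1 down (-0.47, SE 0.128, adjusted p = 0.0123). Rb1 measured 89.4, 94.3, 96.1 and 103 CPM at D1, against 65.5 to 81.8 CPM at D0. This call of Rb1 was lost in 23 of 36 fits that each left out 1 library: without D0 replicates 1, 2 or 3, any D1, D2 or D3 library, D9 replicates 1, 3 or 4, D10 replicates 2 or 3, and D18 replicates 1, 2 or 3 (adjusted p = 0.0507 to 0.156). It was also lost with a pseudocount of 0.1 (0.0502), median-of-ratios scaling (0.066), quantile normalisation (0.0658), TPM (0.138), the replicate block (0.0958), the numbered libraries (0.0614), edgeR (0.0512) and DESeq2 (0.0549).

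D2 brought the largest falls of Rbl1 and E2f5, and on this scale those of E2f7 and E2f8. Of the 9 genes, 5 were called down between D2 and D1 (41.5% of genes tested): Rbl1 (log2 -1.81), E2f1 (-1.52), E2f5 (-0.70), E2f7 (-2.66) and E2f8 (-2.28). The 5 genes called between D3 and D2 (12.6% of genes tested) were these 5 again, all down, and E2f1 had its largest fall there (-1.86, SE 0.231). E2f7 fell by 2.11 on the log2 scale at D3, but its order of steps rests on the pseudocount of 0.5. With a pseudocount of 0.1 its changes were -2.80 at D2 and -2.86 at D3, and in edgeR on recovered counts -2.80 and -3.13. E2f8 kept its largest fall at D2 with 0.1 (-2.40, against -2.15 between D9 and D3). In edgeR it did not (-2.40, against -2.74). E2f1 then held level, at 7.43, 7.77, 8.19 and 9.27 CPM at D9, against 5.76, 6.44, 7.11 and 9.26 CPM at D3. The E2f5 fall at D3 (-0.48, adjusted p = 0.0228) lost its call without D2 replicate 1 or 2 or D3 replicate 2 or 3 (adjusted p = 0.0631 to 0.0826), and under quantile normalisation (-0.29, adjusted p = 0.217). Between D9 and D3, 6 genes were called, all down (43.4% of genes tested), and Rb1 (-0.60, SE 0.122) and E2f3 (-0.49, SE 0.146) had their largest falls in that longer interval. The D9 fall of E2f7 (-0.59, adjusted p = 0.0416) lost its call without any 1 of D3 replicates 1, 2 and 4 or the 4 D9 libraries (adjusted p = 0.057 to 0.12). It also depended on the pseudocount, at -1.40 (adjusted p = 0.000248) with 0.1, -0.35 (adjusted p = 0.199) with 1 and -2.32 (adjusted p = 0.0104) in edgeR, and was not called under quantile normalisation (-0.43, adjusted p = 0.161) or in TPM (-0.42, adjusted p = 0.145). Rbl2 passed no step test up to D9 in the fit over all days, its largest being 0.24 at D3 (adjusted p = 0.385). That step was called with the libraries of D3 and D2 alone (adjusted p = 0.0042) and without D10, D11 and D12 (adjusted p = 0.00985).

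After doxycycline returned, only Rbl1 was called between D10 and D9 (log2 0.86, SE 0.128, adjusted p = 5.19e-05; 3.63% of genes tested), with 7.57, 8.40, 8.95 and 9.24 CPM at D10, against 3.92 to 5.10 CPM at D9. T antigen was then at 14.1% of its D0 mean. D11 was the day of the broad rise: of the 9 genes, 6 were called, all up (25.5% of genes tested), namely Rbl1 (2.40), E2f1 (3.23), E2f3 (0.81), E2f5 (0.53), E2f7 (4.42) and E2f8 (4.61). In edgeR on recovered counts, without the pseudocount of 0.5, the E2f7 rise was 6.96 and the E2f8 rise 5.895. With a pseudocount of 0.1 they were 5.99 and 5.42, so the order of these rises rests on the pseudocount. The E2f5 call was absent under quantile normalisation (0.26, adjusted p = 0.2). T antigen was at 72.1% of D0 there, E2f1 at 138% and E2f7 at 40.5%. The D11 libraries were unequal. E2f1 measured 61.9, 155, 84.7 and 155 CPM in D11 replicates 1 to 4, E2f7 5.89, 23.4, 8.95 and 18.6 CPM and E2f8 10.8, 38.7, 15.1 and 35.4 CPM, with T antigen at 1705, 2361, 2035 and 2420 CPM in the same libraries. Replicates 1 and 3 were the low ones for all 4 of these transcripts, and leaving out any 1 library kept the calls of E2f1, E2f7 and E2f8 at D11.

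Between D12 and D11, 5 genes were called (40.0% of genes tested): Rbl1 (0.69), E2f5 (1.20), E2f7 (1.17) and E2f8 (0.94) up, and Rbl2 down (-0.56, SE 0.162, adjusted p = 0.00615). The D12 libraries did not behave alike. E2f1 measured 218, 199, 94.6 and 95 CPM in D12 replicates 1 to 4, Rbl2 31.2, 31.0, 15.7 and 12.8 CPM, Rb1 94.5, 75.9, 55.1 and 51.8 CPM and E2f5 7.18, 7.47, 13.3 and 12.3 CPM. E2f4 ran opposite to E2f1, at 34.2, 41.0, 61.2 and 59.4 CPM, and E2f5 was higher in replicates 3 and 4 too. T antigen, at 3830, 1962, 2432 and 1637 CPM in the same order, did not share this split. The Rbl2 call was lost without D12 replicate 4 (-0.33, adjusted p = 0.0716). With the libraries of D12 and D11 alone, where the spread is theirs only, Rbl2 (adjusted p = 0.23), E2f7 (0.0893) and E2f8 (0.151) were not called. Between D18 and D12, 3 genes were called, all up (48.9% of genes tested): Rbl1 (0.37, adjusted p = 0.0181), E2f7 (1.03, adjusted p = 0.000549) and E2f8 (1.12, adjusted p = 0.000423). The Rbl1 call was lost without D12 replicate 2 or 4 or D18 replicate 4 (adjusted p = 0.054 to 0.0693), and without D12 replicate 1 the count came to 6.

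**Figure D3:**
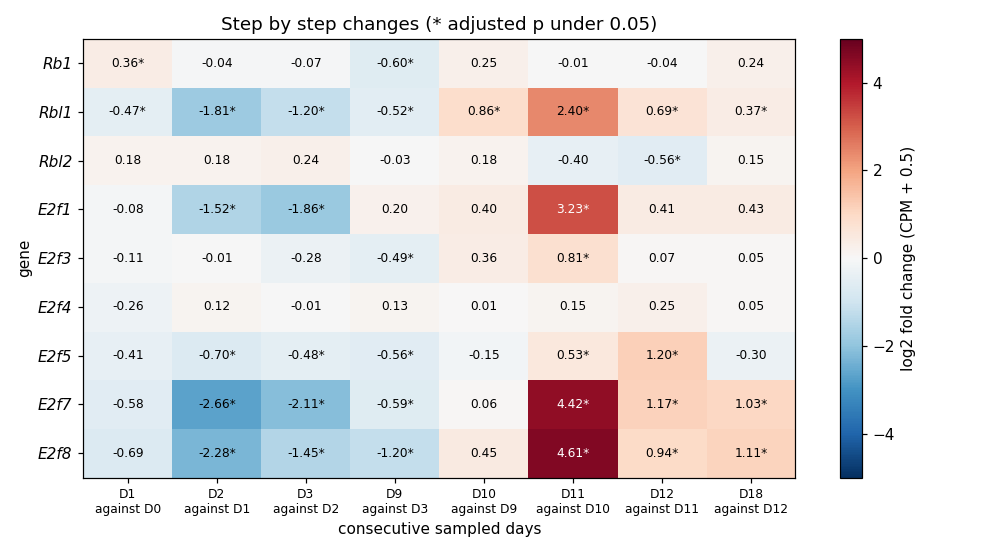
Log2 fold change of each gene (rows) at each of the 8 steps between consecutive sampled days (columns), red for higher and blue for lower at the later day; an asterisk marks adjusted p under 0.05. On this log2(CPM + 0.5) scale the largest values are the D11 rises of E2f7 (4.42) and E2f8 (4.61). The largest falls on it are those of E2f7 (-2.66) and E2f8 (-2.28) at D2.

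**Figure D4:**
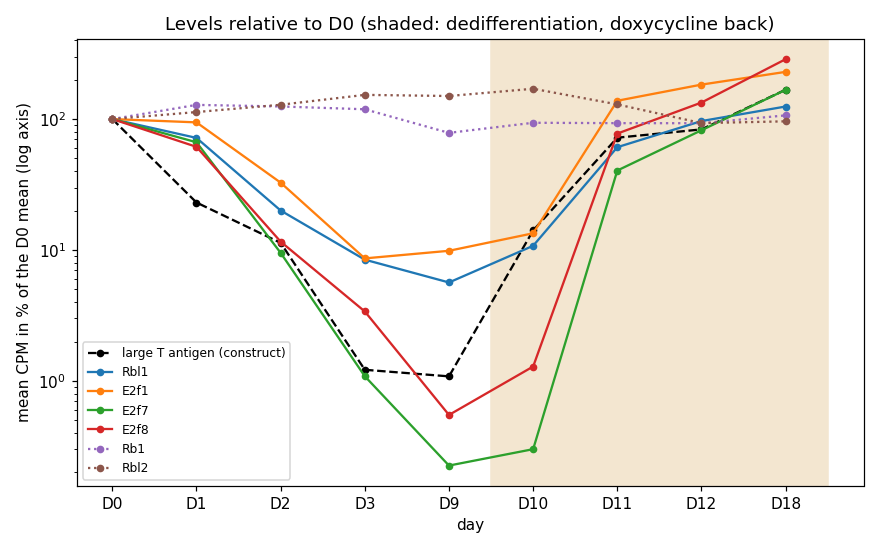
Mean CPM of T antigen and 6 genes in percent of the D0 mean (log axis) by day, with doxycycline back on the shaded days. T antigen (dashed) is at 23.1% at D1 while E2f1 is at 94.4%, and Rb1 and Rbl2 (dotted) stay between 78.5% and 170% throughout.

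Per length, the make-up of both families turned over. Levels between genes are given in TPM, and shares within a library do not depend on the scaling between libraries. The 3 retinoblastoma genes summed to 53.0 ± 4.43 TPM at D9, against 133 ± 10.2 TPM at D0 (SD, n = 4 each). Rbl1 held 5.40% ± 0.766 of that sum at D9, against 47.9% ± 1.51 at D0. Rb1 held 67.6% ± 1.72 at D9, against 43.1% ± 1.54 at D0, and Rbl2 held 27.0% ± 1.03, against 9.02% ± 0.606. At D18, Rbl1 held 52.1% ± 0.715, Rb1 40.3% ± 0.260 and Rbl2 7.62% ± 0.475. In levels, Rb1 led at D9 with 35.8 ± 3.03 TPM, followed by Rbl2 with 14.3 ± 1.43 TPM and Rbl1 with 2.86 ± 0.476 TPM. At D18, Rbl1 led with 80.9 ± 10.6 TPM, before Rb1 with 62.4 ± 7.00 TPM and Rbl2 with 11.8 ± 0.779 TPM.

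Among the 8 E2F genes, E2f6, a repressor that works without the retinoblastoma family, took the largest share on each of the days given here. Its share was 73.4% ± 0.833 at D9, against 32.8% ± 0.421 at D0, and 27.9% ± 1.97 at D18. These shares moved with the family sum too, which was 171.9 ± 5.84 TPM at D9, against 285.5 ± 6.67 TPM at D0, and 459.4 ± 20.7 TPM at D18. In levels, E2f6 was at 126.1 ± 4.20 TPM at D9, against 93.5 ± 2.91 TPM at D0. It did not fall back at D18, with 128.5 ± 14.6 TPM. E2f4 held 19.6% ± 0.771 at D9, against 15.2% ± 1.05 at D0, although its level was lower at D9. That level was 33.8 ± 2.03 TPM at D9, against 43.3 ± 2.9 TPM at D0. E2f1 held 2.00% ± 0.187 at D9, against 15.4% ± 0.813 at D0, and 22.4% ± 2.84 at D18. E2f7 and E2f8 held 0.0259% ± 0.0127 and 0.0742% ± 0.0538 at D9, against 8.75% ± 0.695 and 10.3% ± 0.358 at D0, and 9.26% ± 0.498 and 18.7% ± 0.795 at D18. E2f5 held 3.22% ± 0.163 at D9, against 12.3% ± 0.892 at D0, but 4.12% ± 0.454 at D18. Its level was 5.52 ± 0.242 TPM at D9, against 35.0 ± 2.44 TPM at D0, and 19.0 ± 3.01 TPM at D18.

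**Figure D5:**
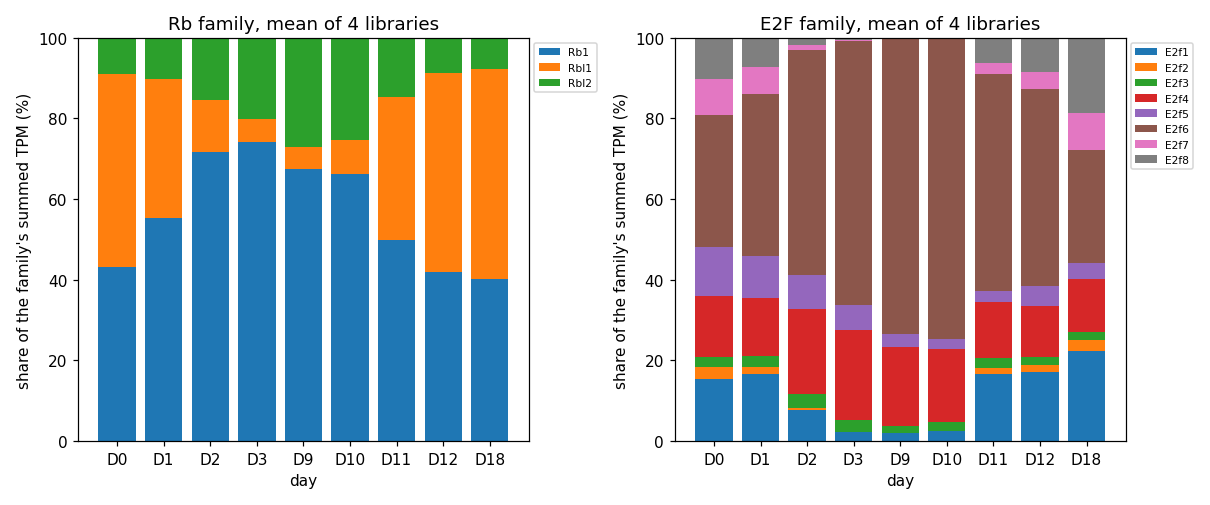
Share of each gene in the summed TPM of the retinoblastoma family (left) and of the E2F family (right) by day, mean of 4 libraries, bars stacked to 100%. Rbl1 shrinks to 5.40% at D9, against 47.9% at D0, while E2f6 grows to 73.4% at D9, against 32.8% at D0.

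The order of the days differed between the genes. Rbl2 was highest at D10 (41.5 ± 3.30 CPM) and lowest at D12 (22.7 ± 9.80 CPM). Its range at D10 overlapped that of D3, the next day in order, and its D12 range overlapped that of D18. Rb1 was highest at D1 (95.7 ± 5.63 CPM) and lowest at D9 (58.5 ± 3.44 CPM), and the ranges of neighbouring days overlapped all the way down that order. E2f4 was highest at D18 (49.4 ± 2.77 CPM) and lowest at D1 (30.3 ± 2.73 CPM), and likewise no neighbours stood apart. E2f7 and E2f8 were highest at D18 and lowest at D9 by day mean. For E2f7 the ranges of D10 and D9 overlapped, so its lowest day is not settled. For E2f8 they did not, but these values are only 13 to 19 steps at D10, against 1 to 9 at D9. The E2f8 change between D10 and D9 was not called (limma, log2 0.45, adjusted p = 0.365).

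Over the 36 libraries, E2f7 and E2f8 had a Pearson r of 0.987 on log2(CPM + 0.5), E2f7 and Rbl1 of 0.984 and E2f1 and E2f8 of 0.971. The genes of each pair are read from the same libraries and so share their days and scaling. Rbl2 ran against Rbl1 (-0.736) and E2f5 (-0.773), and Rb1 had an r of 0.163 with Rbl1. The tested genes with the pattern most like E2f7 were Ns5atp9 (r = 0.996), Fanca and Brip1, and those most like E2f8 were Uhrf1 (0.990), Dscc1 and Mki67. Most like Rbl1 were Exo1 (0.994), Mcm4 and Dscc1. E2f1 was most like Fen1 (0.982), AC129365.1 and Tcf19. Most like Rbl2 were Ech1 (0.936), Foxo4 and Alpk1, most like Rb1 Desi2 (0.896), Vps13a and Mtss1l, and most like E2f3 Rad50 (0.881), Wee1 and Mms22l. E2f4 was most like Ppp4r1 (0.910), Srrm1 and Cherp, and E2f5 most like Clic1 (0.970), Calm2 and Emp1. These names depend on the measure. Ranked by Spearman's rho, 0 of the 3 stayed for Rbl1 (then Atad5, Topbp1 and Pole), Rbl2 (Lysmd4, Adarb1 and Epb41) and E2f7 (Stmn1, Rad54l and Fancd2), 1 of 3 for E2f1, E2f3, E2f4 and E2f8, and 2 of 3 for Rb1 and E2f5.

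The genes around the family were read from lists of pathway members, whose counts stand beside 37.0% down and 34.4% up of all tested genes at D9 against D0, and 33.6% up and 32.5% down at D18 against D9. Of 33 tested E2F target genes, which make the machinery of DNA replication, 33 were down and none up at D9 against D0 (median log2 -4.09, against -0.02 for all genes), and 33 were up at D18 against D9 (median 4.35, against -0.00102 for all genes). At D18 against D0, 24 were up, 0 down and 9 not called. The largest falls at D9 were those of the helicase subunit Mcm5 (-7.64, SE 0.181) and of Uhrf1 (-7.34, SE 0.189), and the smallest those of the phosphatase Cdc25a (-0.81, SE 0.0725) and of Tyms (-0.83, SE 0.0906), which makes thymidylate. At D18 against D9 the largest rises were those of Uhrf1 (8.02) and Mcm5 (7.89) and the smallest those of Tyms (1.18) and Msh6 (1.22). By step, 14 of 33 targets fell and 1 rose at D1 (12.3% of all tested genes called in either direction), 33 fell at D2 (41.5%), 32 at D3 (12.6%), and 18 fell and 1 rose at D9 (43.4%). After doxycycline returned, 16 rose at D10 (3.63%), 33 at D11 (25.5%) and 30 at D12 (40.0%), and 22 rose and 1 fell at D18 (48.9%).

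Of 11 tested genes listed as kinases and cyclins that phosphorylate the retinoblastoma proteins, 10 fell and 0 rose at D9 against D0. The median was -1.93, where 37.0% of all genes fell and 34.4% rose. At D18 against D9, 8 rose and 2 fell (median 2.38), where 33.6% of all genes rose and 32.5% fell. The list also holds Skp2 and Cks1b, which are neither kinases nor cyclins. Both fell at D9 against D0 (-3.88 and -1.59) and rose at D18 against D9 (4.02 and 1.78). Ccna2, the cyclin of S phase (log2 -7.68, SE 0.208), and Cdk1, the mitotic kinase (-7.43, SE 0.161), fell most at D9 and rose most at D18 (8.12 and 7.79). The smallest of the called falls at D9 were those of Ccnd3 (-0.25, SE 0.0685) and Cdk4 (-0.62, SE 0.0713). The D cyclins Ccnd1 (-1.21, SE 0.209) and Ccnd3 (-0.52, SE 0.0685) were the 2 that fell at D18 against D9.

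Of 12 partners and complex members, 9 fell and 3 rose at D9 against D0 (median -0.85; 71.4% of all genes called), and 7 rose and 1 fell at D18 against D9 (median 1.14; 66.1% of all genes called). The 8 of 12 called at D18 against D9 are near that share. Mybl2, a cell cycle activator that joins the MuvB complex (log2 -7.00, SE 0.197), and the activator E2f2 (-4.77, SE 0.218) fell most. E2f2 measured 0.0232, 0.0361, 0.174 and 0.243 CPM at D9, against 14.8, 16.3, 16.6 and 17.0 CPM at D0. These D9 values are 1, 1, 5 and 9 steps, and 1 step may stand for 0 reads. E2f2 was below 1 CPM in all D3, D9 and D10 libraries, so it entered the test through the days where it was high. Its log2 fold change is understated by the pseudocount of 0.5. Pooled steps gave a D9 to D0 ratio of 0.00726, any offset included. E2f6 (0.76, SE 0.0703) and the dimerisation partner Tfdp2 (0.73, SE 0.133) rose. At D18 against D9 Mybl2 (7.27) and Foxm1 (5.37), a mitotic activator, rose most, and E2f6 fell (-0.34, SE 0.0703). E2f6 measured 145, 149, 149 and 150 CPM at D9, against 84.6, 86.4, 87.7 and 90.1 CPM at D0, with no overlap.

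Of 6 tested inhibitors of cyclin-dependent kinases, 2 rose, 2 fell and 2 were not called at D9 against D0 (median 0.05), near the 71.4% of all genes called, 34.4% up and 37.0% down. Cdkn1c (2.51, SE 0.304) and Cdkn2b (0.54, SE 0.0965) rose, and Cdkn2c (-1.10, SE 0.157) and Cdkn2a (-0.38, SE 0.139) fell. At D18 against D9, 2 rose and 3 fell (median -0.62; 66.1% of all genes called): Cdkn2c (1.97) and Cdkn1b (0.59) rose, and Cdkn1c (-2.05) and Cdkn1a (-1.43) fell furthest.

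Of 13 co-repressors, 8 fell and 3 rose at D9 against D0 (median -0.26; 71.4% of all genes called, 37.0% down and 34.4% up), and 6 rose and 2 fell at D18 against D9 (median 0.09). The 8 of 13 called at D18 against D9 are near the 66.1% of all genes called. Ezh2, a histone methyltransferase (log2 -3.07, SE 0.132), and Rbbp8 (-1.45, SE 0.112) fell most, while the remodelling ATPase Smarca2 (1.72, SE 0.191) and Arid4b (0.72, SE 0.172) rose. All 4 turned at D18 against D9 (Ezh2 3.36, Rbbp8 1.40, Smarca2 -1.49, Arid4b -0.46).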

How the data were processed

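RNA of 36 libraries was sequenced as pairs with a directional poly(A) kit, per the labels' protocols. The submitters' processing notes name Rnor_6.0 and edgeR 3.26.8 without a role, and no aligner or counter is named in the sources used here. Among the tables, the deposited CPM table is a signal per effective library size. Its values are whole multiples of 1 step per library (100% of low values whole to within 0.1 step). Its columns sum to 868992 to 1136457. The design had assumed CPM, and the same test was used. The deposited TPM table holds the authors' TPM per gene. Each listed CPM value is at least 1 step, which may stand for 0 reads, and genes left out of the tables are not analysed here. 1 D1 column matched no culture label of that day exactly and stayed unnumbered. The lowest mean chi-square per gene between libraries of a day was 3.86 on the recovered counts. Because these are not reads, it cannot tell whether a pair agreed within sampling noise.

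Tests used limma 3.58.1 in R 4.3.3 (eBayes with trend) on log2(CPM + 0.5), 1 mean per day over 36 libraries (27 residual degrees of freedom), for the 12487 rat genes that reached 1 CPM in 4 or more libraries. P-values are two-sided and adjusted by Benjamini-Hochberg within each of 11 comparisons, which share libraries, so D0, D9 and D18 enter more than 1. The fit and its alternatives were also run on simulated data, but the outcome is not reported here and no result above rests on it. Alternatives used edgeR 4.0.16 and DESeq2 1.42.0 on the step counts recovered from the deposited values, which are not true read counts. Members and lists were chosen with earlier results of these data known. All 9 members are named, with the 2 highest and 2 lowest called genes of each list reported, each member's largest step and its 3 most similar genes. 1 further list is not reported here. Errors are SD unless SE is written.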

Additional observations from a re-analysis of the deposited data

Results flagged for a closer look

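In groups of 4 libraries, the highest or lowest library was set against the other 3, for 81 groups of 1 gene on 1 day. Its gap to the nearest library passed Dixon's 95% critical value for 4 samples in 7 groups, where chance flags about 1 group in 20. Each of the 7 was a highest library. Rbl1 at D2 was 17.6 CPM in replicate 4, against 15.1 to 15.5 CPM in the others. Rbl2 at D1 was 30.5 CPM in replicate 2, against 26.4 to 26.8 CPM. E2f5 at D18 was 9.55 CPM in replicate 4, against 7.16 to 7.41 CPM, and E2f7 in the same library was 66.3 CPM, against 55.8 to 57.1 CPM. E2f8 was 34.9 CPM in D0 replicate 2, against 31.2 to 31.7 CPM, 1.93 CPM in D3 replicate 2, against 0.784 to 0.872 CPM, and 0.53 CPM in D10 replicate 1, against 0.361 to 0.389 CPM.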

How the results depend on the processing

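The settings tried were pseudocounts of 0.1 and 1, no filter, a filter of 5 CPM, median-of-ratios and quantile scaling and the TPM table. Others were fits of the compared days only, a replicate block, edgeR and DESeq2 on recovered counts and Spearman's rho for the most similar genes. Each library was also left out in turn. Chosen after seeing the data were a fit without D10, D11 and D12 and one of the 35 numbered libraries. For D1 against D0 the 2 members called became 1 with pseudocount 0.1, quantile scaling, the replicate block, the numbered libraries and edgeR, 4 with pseudocount 1, 6 with the compared days only and 6 without D10 to D12 (1 to 4 without 1 library). For D18 against D12 the 3 became 5 in TPM (2 to 6 without 1 library), and for D12 against D11 the 5 became 2 with the compared days only. Fits of the compared days only called 5262 genes for D1 against D0, 7924 for D2 against D1, 4190 for D3 against D2, 114 for D10 against D9, 1892 for D11 against D10, 1155 for D12 against D11 and 3576 for D18 against D12, where the fit over all days called 1532, 5188, 1574, 453, 3187, 4995 and 6111. Without D10 to D12, 3975 genes were called for D1 against D0 and 3720 for D3 against D2. For D10 against D9, quantile scaling called 283 and DESeq2 701 (229 to 611 without 1 library). The cause was not tested, apart from the spread, which the compared days only set by their own libraries.

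E2f4 at D9 against D0 turned to 0.058 under quantile scaling, and to 0.00686 without D0 replicate 3 and 0.00137 without D9 replicate 4 (range -0.0767 to 0.00686). Rbl2 at D18 against D0 turned to 0.000903 without D0 replicate 2 (range -0.1038 to 0.000903). No sign turned for the other members in the 3 main comparisons. Same-numbered libraries did not deviate together: 10 of 42 pairs correlated above 0.1 (-0.324 to 0.27), and 2 of 8, 2 of 8 and 3 of 8 libraries of the main comparisons correlated best with their own number. With the replicate block 1002 genes were called for D1 against D0, and Rbl1 at D18 against D0 had an adjusted p of 0.0534. Scaling moved the share of calls that were up to 27.1% (TPM) at D9 against D0, against 48.2% in CPM, and to 77.0% (TPM) and 40.2% (quantile) at D18 against D9, against 50.8%. Below about 1 CPM, E2f7 and E2f8 rest on 10 and 22 steps at D9, any offset included.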
